A study of Mus musculus with 6 samples.

Results

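A set of 10 genes of the regulated exocytosis machinery was followed through the cell types of mouse pancreatic islets: Snap25, Vamp2, Stx1a, Rab3a, Rab3b, Rab27a, Syt7, Syt13, Cadps and Rims3. They were taken by name, with earlier results of these data known, and make up 10 of the 52542 gene rows of the tables. Another 83 genes of the same machinery, chosen in the same way, served as a second list. Cells were sorted into plates of 384 wells and read by MARS-seq, which tags the 3′ end of each captured transcript with a unique molecular identifier (UMI) before amplification, so that a UMI count stands for captured molecules. All mice were male and of the strain Sox9-CreER; tdTomato, in which tamoxifen switches on a red reporter in cells of the Sox9 lineage and their descendants. Every mouse received tamoxifen (8 mg) over 2 weeks from 10 weeks of age, was operated on at 12 weeks and gave islets 4 weeks later. One group of 3 plates came from mice with a partial pancreatectomy (ppx), and the other group of 3 plates came from sham-operated mice. By tomato status, ppx replicate 1 was positive and ppx replicates 2 and 3 negative, while sham replicate 1 was positive, sham replicate 2 mixed (the first 4 rows positive) and sham replicate 3 negative. The reporter depends on the Sox9 promoter and on recombination before surgery, and the labels do not tie plates to single mice, so p-values cover the spread between plates, which may be technical.

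Hormone cells store their hormone in granules that fuse with the plasma membrane when calcium enters. Fusion is driven by the SNARE proteins SNAP25, VAMP2 and syntaxin-1A (Stx1a). The small GTPases of the Rab3 and Rab27 groups mark granules and bring them to the membrane, synaptotagmins such as SYT7 sense calcium, CAPS (Cadps) primes granules for release, and RIM proteins tether them near release sites. Beta cells release insulin, alpha cells glucagon, delta cells somatostatin and gamma cells pancreatic polypeptide (Ppy).

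Kinds of well were set from the hormones alone, as the share of a well's UMIs, so none of the 10 genes took part in defining them. A well was high in insulin (Ins1 and Ins2) above 3.3%, in somatostatin (Sst) above 0.73%, in glucagon (Gcg) above 2.3% and in Ppy above 2%. Wells named for insulin, somatostatin or glucagon alone were low in the other 2 of these and could have any level of Ppy. Somatostatin-only wells numbered 245 on ppx plates and 295 on sham plates, glucagon-only wells 31 and 122, Ppy-only wells 43 and 19, wells high in both insulin and somatostatin 88 and 87, and insulin-only wells 606 and 394. Another 33 wells on ppx plates and 62 on sham plates were low in all 4 hormones and carried endothelial, stromal or immune transcripts, and they are called hormone-low wells below. Defining markers followed the labels of the kinds of well. Hhex averaged 357 CPM (a level, the gene's UMIs per 1000000 UMIs of the sum) in somatostatin-only wells and at most 21.7 CPM in the other single-hormone wells, Irx2 145 CPM in glucagon-only wells and at most 6.1 CPM elsewhere among them, and Ucn3 and Mafa 772 and 794 CPM in insulin-only wells. The plates held 1262152 to 1508513 UMIs after ppx and 1250861 to 1458576 after sham operation, no well name occurred on more than 1 plate, and the median well had 1582.5 UMIs where only somatostatin was high, against 4250.5 UMIs where only insulin was high.

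Rab3b and Rims3, both on chromosome 4, divided somatostatin-only from insulin-only wells in opposite directions, so the sequence at their starts is given first. Each RefSeq promoter window of GRCm38.p6 runs from 250 bases before to 50 bases after the transcript start, and capitals mark the letters CANNTG, the core of an E-box, which reads alike on both strands.
Rab3b, chr4:108878820-108879119, plus strand: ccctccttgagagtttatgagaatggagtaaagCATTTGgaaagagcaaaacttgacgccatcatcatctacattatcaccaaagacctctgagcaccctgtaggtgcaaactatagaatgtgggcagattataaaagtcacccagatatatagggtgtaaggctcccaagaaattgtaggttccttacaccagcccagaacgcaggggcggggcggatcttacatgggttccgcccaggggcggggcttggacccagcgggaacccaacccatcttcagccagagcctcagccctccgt
Rims3, chr4:120854549-120854848, plus strand: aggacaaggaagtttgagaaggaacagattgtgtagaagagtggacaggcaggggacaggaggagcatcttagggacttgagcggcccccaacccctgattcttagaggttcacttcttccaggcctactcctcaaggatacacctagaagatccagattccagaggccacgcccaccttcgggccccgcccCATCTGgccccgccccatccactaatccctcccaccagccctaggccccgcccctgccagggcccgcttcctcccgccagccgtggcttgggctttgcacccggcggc
The Rab3b window had a GC content of 51.7% with 8 CpG dinucleotides, and the Rims3 window 62.3% with 11, against medians of 52.7% and 7 over 32851 promoters. Each holds a single E-box core, at base 34 of the Rab3b window and at base 193 of the Rims3 window, and 72.3% of all promoters hold at least 1. The cAMP response element TGACGTCA (1.79% of promoters), the homeodomain core TAATTA (5.29%) and the Maf half-site TGCTGA (19.5%) matched neither window on either strand. Promoter windows were also found for Stx1a, Rab3a, Rab27a and Cadps, and none of them held these 3 motifs either.

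In the GENCODE annotation of GRCm38, Rab3b spans chr4:108879063-108943324 and Rims3 chr4:120854816-120896579, both on the plus strand. Snap25 (chr2:136713453-136782428) and Syt13 (chr2:92915098-92956058) share chromosome 2, Cadps lies on the minus strand of chromosome 14 (chr14:12372563-12823079), and the remaining members lie on chromosomes 11 (Vamp2), 5 (Stx1a), 8 (Rab3a), 9 (Rab27a) and 19 (Syt7). Reads are counted near the 3′ end of a gene, where Rab3a is overlapped on the other strand by Mpv17l2 and Rab3b by 8030443G20Rik. Mpv17l2 held 76 UMIs in the tables against 931 for Rab3a, and 8030443G20Rik 1 UMI against 1120 for Rab3b. The sources used here do not say whether counting used the strand.

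The first question was at which level each islet cell type carries the genes. Rab3b stood higher in somatostatin-only wells than in insulin-only wells, and Rims3, Syt13, Cadps and Rab3a stood lower. The SNARE genes Snap25 and Vamp2 had overlapping levels in all 4 kinds of single-hormone well. All values below are UMIs summed over the wells of a kind on a plate, as CPM, and a mean with its SD is over plates with at least 5 such wells. In such sums, fewer expressing cells and less RNA per cell cannot be told apart.

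**Figure D1:**
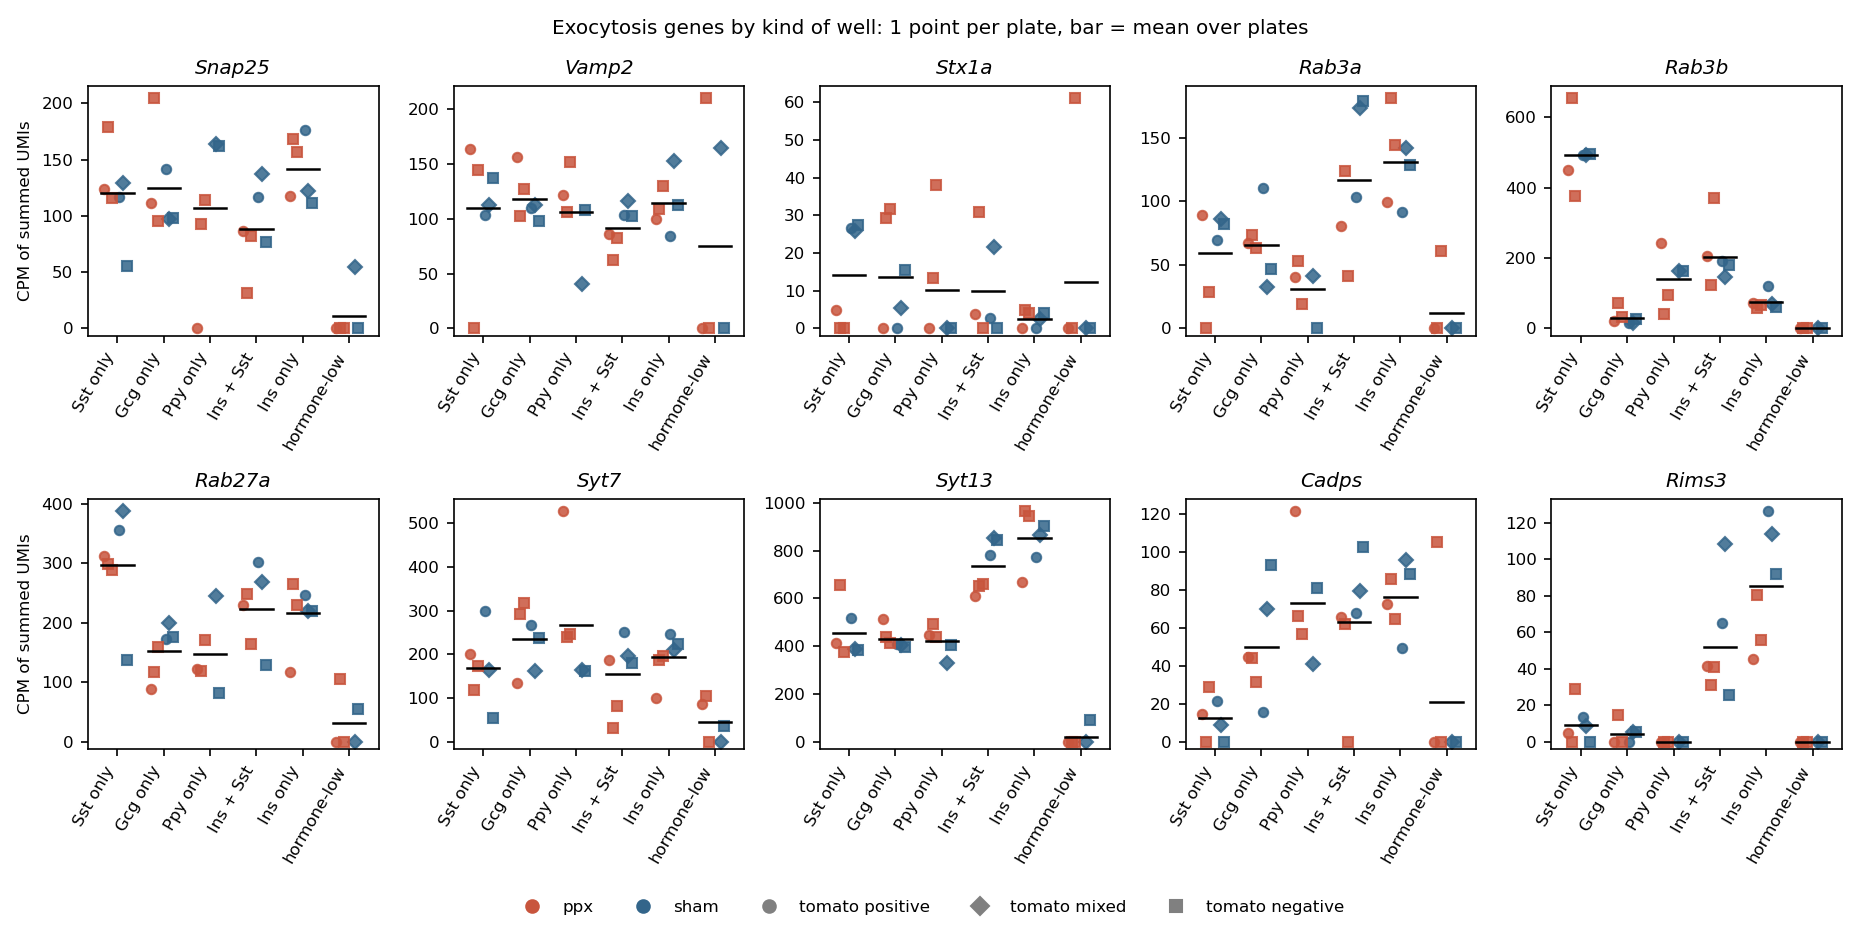
Level of each gene (CPM of summed UMIs, linear axis) in 6 kinds of well, with 1 point per plate, red for ppx and blue for sham, shapes for tomato status and a bar at the mean over plates. Rab3b stands at 375 to 656 CPM on the 6 plates of somatostatin-only wells, and Rims3 at 45.3 to 126.6 CPM on those of insulin-only wells.

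Rab3b encodes a Rab3 GTPase of secretory granules. In somatostatin-only wells it reached 451, 656 and 375 CPM on the ppx plates and 493, 492 and 495 CPM on the sham plates. In insulin-only wells it had 72.4, 57.3 and 65.6 CPM on the ppx plates and 119.6, 69.8 and 61.5 CPM on the sham plates. The lowest plate of somatostatin-only wells was thus above the highest plate of insulin-only wells, whatever the operation or the tomato status. Ppy-only wells averaged 141 ± 77.3 CPM (SD, n = 5 plates) and glucagon-only wells 30.8 ± 21.6 CPM (SD, n = 6). The Ppy-only plates (39.8 to 243.8 CPM) overlapped the insulin-only plates in level, and those overlapped the glucagon-only plates (15.7 to 73.2 CPM). In hormone-low wells Rab3b had 0 of 114956 UMIs, which allows up to 26.1 CPM, so its pooled level in somatostatin-only wells was at least 18.2-fold higher (a bound from a limit of 3 counts over the group, for counting error only).

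The share of wells with a Rab3b UMI gave the same order at equal depth. With every well thinned to 1000 UMIs and shallower wells left out (58 somatostatin-only, 1 Ppy-only, 10 insulin-only and 2 glucagon-only wells), 38.8% of 482 somatostatin-only wells held Rab3b (exact 95% interval 34.4 to 43.3), against 14.8% of 61 Ppy-only wells (6.98 to 26.2), 6.77% of 990 insulin-only wells (5.28 to 8.52) and 1.99% of 151 glucagon-only wells (0.41 to 5.7). Without thinning the shares were 53.0% in somatostatin-only wells, 23.6% in insulin-only wells and 9.15% in glucagon-only wells. Of 43 thinned hormone-low wells, which should lack the gene, 0 held a UMI (upper bound 8.22%), and their median depth before thinning was 953 UMIs. Intervals and limits here cover counting error only.

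Rims3, the small RIM protein of release sites, showed the opposite layout. Somatostatin-only wells had 5.0, 0 and 28.9 CPM on the ppx plates and 13.3, 8.6 and 0 CPM on the sham plates, from 9 UMIs in 540 wells. Insulin-only wells had 45.3, 80.2 and 55.9 CPM on the ppx plates and 126.6, 113.6 and 91.8 CPM on the sham plates. Every plate of insulin-only wells was above every plate of the other single-hormone wells. Glucagon-only wells held 3 Rims3 UMIs in 153 wells, a pooled level of 5.1 CPM (95% counting interval 1.1 to 14.9). Ppy-only wells held 0 of 227013 UMIs, so the pooled level of insulin-only wells, 82.9 CPM, was at least 6.27-fold higher than theirs by the same limit of 3 counts over the group. At 1000 UMIs a well, Rims3 was seen in 0.62% of somatostatin-only wells, 0.66% of glucagon-only wells and 6.97% of insulin-only wells.

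Syt13, an atypical synaptotagmin, was present in all hormone wells. It had 411, 656 and 375 CPM on the ppx plates and 519, 388 and 385 CPM on the sham plates of somatostatin-only wells. In insulin-only wells it reached 670, 966 and 943 CPM on the ppx plates and 774, 866 and 901 CPM on the sham plates. The 2 sets of plates did not overlap, although somatostatin-only wells of ppx replicate 2 (656 CPM) and insulin-only wells of ppx replicate 1 (670 CPM) came close. Glucagon-only and Ppy-only wells averaged 429 ± 43.6 CPM (SD, n = 6) and 421 ± 60.9 CPM (SD, n = 5), within the range of the somatostatin-only plates.

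Cadps, the granule priming factor CAPS, had its lowest mean among the single-hormone wells where only somatostatin was high. Somatostatin-only wells had 14.9, 0 and 28.9 CPM on the ppx plates and 21.3, 8.6 and 0 CPM on the sham plates. Insulin-only wells had 72.4, 86.0 and 64.8 CPM on the ppx plates and 49.2, 95.9 and 88.7 CPM on the sham plates. No somatostatin-only plate reached the lowest insulin-only plate, while Ppy-only wells (73.4 ± 30.8 CPM, SD, n = 5) and glucagon-only wells (49.8 ± 27.7 CPM, SD, n = 6) overlapped the insulin-only wells. The glucagon-only plates (15.7 to 93.1 CPM) also overlapped the somatostatin-only plates.

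Rab3a, the paralog of Rab3b best known from synaptic vesicles, averaged 59.3 ± 36.6 CPM in somatostatin-only wells (SD, n = 6), 65.4 ± 26.6 CPM in glucagon-only wells (n = 6), 30.7 ± 21.1 CPM in Ppy-only wells (n = 5) and 131 ± 33 CPM in insulin-only wells (n = 6). Its somatostatin-only plates, at 89.1, 0 and 28.9 CPM after ppx and 69.2, 86.3 and 82.5 CPM after sham operation, all lay under the lowest insulin-only plate, which had 91.4 CPM. Rab27a, a GTPase of granule docking, averaged 297 ± 86.8 CPM in somatostatin-only wells, 152 ± 41.0 CPM in glucagon-only wells, 148 ± 63.3 CPM in Ppy-only wells and 216 ± 51.3 CPM in insulin-only wells, with plates that overlap between neighbours in this order. Syt7, the calcium sensor, averaged 168 ± 81.5, 235 ± 73.3, 268 ± 150.9 and 194 ± 50.8 CPM in the same kinds of well, with overlapping plates throughout.

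Snap25 and Vamp2, the SNARE genes of the plasma membrane and of the granule, varied little between kinds of well. Snap25 averaged 120.0 ± 39.5 CPM in somatostatin-only, 125 ± 43.1 CPM in glucagon-only, 107 ± 67.0 CPM in Ppy-only and 142 ± 28.1 CPM in insulin-only wells. Vamp2 averaged 110.2 ± 58.2, 118 ± 21.2, 106 ± 40.7 and 115 ± 24.0 CPM in the same order. Their plates overlapped between these 4 kinds of well, while hormone-low wells held 1 Snap25 UMI and 5 Vamp2 UMIs of 114956. Stx1a was near the detection limit: it had 16 UMIs in somatostatin-only wells (16.3 CPM pooled, counting interval 9.3 to 26.4) and 17 UMIs in insulin-only wells (3.8 CPM pooled, 2.2 to 6.0), and it passed the filter on low counts in no comparison.

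The second question was which of these differences exceeded the spread between plates. Sums of the same plate were compared with edgeR's quasi-likelihood test, with plate as a block, and called at a Benjamini-Hochberg adjusted p under 0.05 over all genes tested. Between somatostatin-only and insulin-only wells 1 member was higher and 4 were lower, of 9 tested, beside 17.6% of all 5792 genes called, 6.84% higher and 10.8% lower. Since the members were chosen with earlier results of these data known, their share called is a description only. Rab3b was 5.42-fold higher (log2 fold change 2.44 ± 0.22 SE, edgeR adjusted p = 1.57e-26). Rims3 was 11.4-fold lower (-3.51 ± 0.49, adjusted p = 4.98e-11), Cadps 5.40-fold lower (-2.43 ± 0.45, adjusted p = 1.85e-06), Syt13 2.29-fold lower (-1.19 ± 0.17, adjusted p = 3.21e-10) and Rab3a 1.97-fold lower (-0.98 ± 0.29, adjusted p = 0.00799). In all 5, every plate of one kind of well lay beyond every plate of the other, which was so for 8.46% of all genes. Snap25 (-0.53 ± 0.27, adjusted p = 0.167), Vamp2 (-0.19 ± 0.27, 0.71), Rab27a (0.29 ± 0.20, 0.36) and Syt7 (-0.31 ± 0.22, 0.381) did not pass the edgeR threshold. The median log2 fold change was -0.53 over the 9 members tested and -0.08 over all genes.

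**Figure D2:**
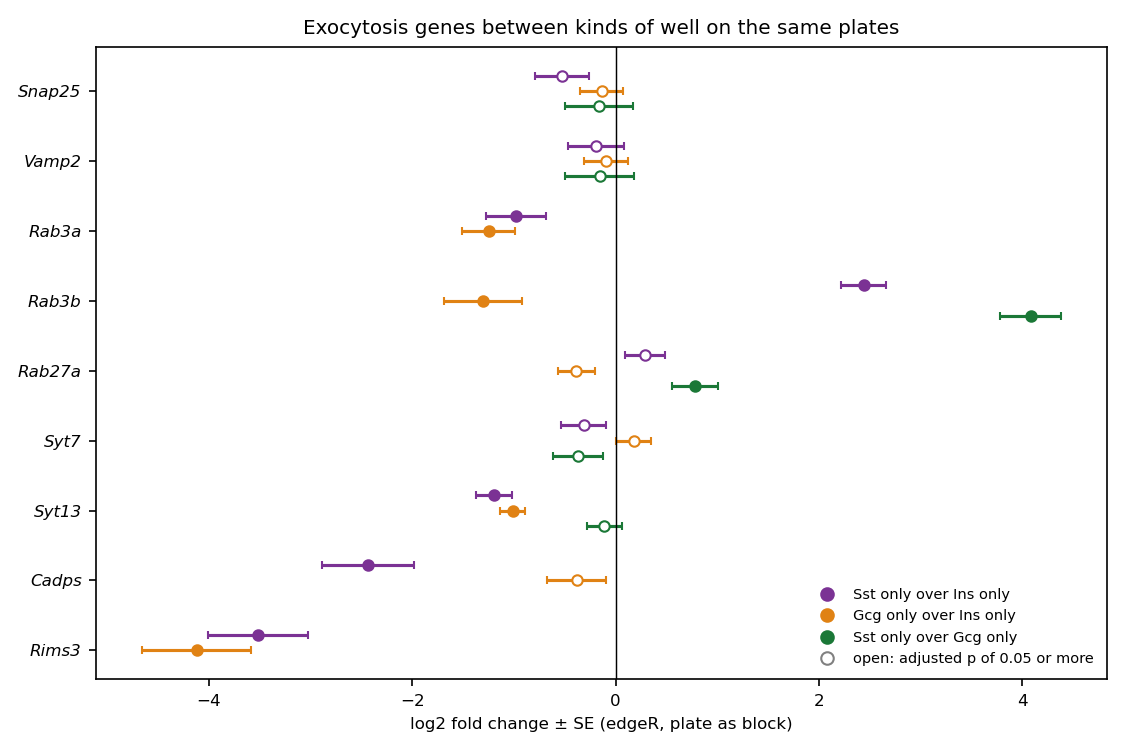
Log2 fold change with its standard error for the members tested between kinds of well (edgeR, plate as block), filled where the adjusted p was under 0.05. Rab3b lies at 2.44 and 4.08 for somatostatin-only wells over insulin-only and glucagon-only wells, and Rims3 at -3.51 and -4.12 for somatostatin-only and glucagon-only wells over insulin-only wells.

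Scaling touched the weaker of these values. With library size alone in place of TMM factors, an alternative added after the data were seen, 695 genes were higher and 356 lower in somatostatin-only wells, against 396 and 624 with TMM, and the median of all genes moved to 0.22. Under it Rab3b, Rims3, Cadps and Syt13 remained called in the same direction, Vamp2 had 0.10, Rab3a -0.67 (edgeR adjusted p = 0.104) and Rab27a 0.59 (adjusted p = 0.0235). The median somatostatin share of UMIs was 7.7% to 20.3% over the plates of somatostatin-only wells, and the median insulin share 14.9% to 31.1% over those of insulin-only wells.

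Somatostatin-only wells also carried Ppy and transcripts of the duct and acinar marker lists. Ppy and Pyy together had 42542 to 155386 CPM there, against 1109 to 7452 CPM in insulin-only wells. The summed duct list had 1097 to 1669 CPM in somatostatin-only wells, against 288 to 616 CPM in insulin-only wells. In both, 4 of 5 genes had UMIs, with the defining marker Krt19 at 0 UMIs. Clu alone averaged 1084 CPM in somatostatin-only and 131 CPM in insulin-only wells. Krt18 (210 and 164 CPM), Krt8 (110 and 90.8 CPM) and Spp1 (72.5 and 43.8 CPM) differed less. The acinar list had 110.0 to 477 CPM and 0 to 72.4 CPM, of which Cela1 alone averaged 234 CPM in somatostatin-only wells. In those wells Cela1 had 245 UMIs, while Cpa1 had 0, Cela3b 1, Prss2 2 and Ctrb1 3. The part of these transcripts in the differences above was not tested, except that leaving out the wells high in Ppy kept Rab3b, Rims3, Cadps and Syt13 called, while Rab3a had -0.61 (edgeR adjusted p = 0.285). Rab3b itself had 445 to 527 CPM in the 321 somatostatin-only wells that were also high in Ppy, over 6 plates, and 90.4 to 501 CPM in the 219 that were not, over the 5 plates with at least 5 such wells (the lowest from 1 UMI in 6 wells).

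Between glucagon-only and insulin-only wells 4 of 9 tested members were lower and none was higher, beside 35.5% of 3598 genes called in either direction and 19.5% called lower. Rims3 was 17.4-fold lower (log2 fold change -4.12 ± 0.53, edgeR adjusted p = 2.08e-11) and Syt13 2.02-fold lower (-1.01 ± 0.12, adjusted p = 1.44e-12), each with plates that do not overlap, as for 15.6% of all genes. Rab3a was 2.38-fold lower (-1.25 ± 0.26, adjusted p = 3.05e-05) and Rab3b 2.46-fold lower (-1.30 ± 0.39, adjusted p = 0.00381), with plates that overlap. Rab3b fell under the filter on low counts, and so had no test, without sham replicate 2 or without sham replicate 3. Cadps, which was low in somatostatin-only wells, had -0.38 ± 0.29 here (edgeR adjusted p = 0.328). Rab27a (-0.39 ± 0.18, 0.0861), Syt7 (0.18 ± 0.17, 0.462), Snap25 (-0.14 ± 0.21, 0.671) and Vamp2 (-0.09 ± 0.22, 0.794) did not pass the threshold either.

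Between somatostatin-only and glucagon-only wells 2 of 6 tested members were higher and none lower, beside 28.7% of 1186 genes called in either direction and 12.3% called higher. Rab3b was 16.9-fold higher (log2 fold change 4.08 ± 0.30, edgeR adjusted p = 2.37e-18), with plates that do not overlap, as for 12.3% of all genes. Rab27a was 1.72-fold higher (0.78 ± 0.23, edgeR adjusted p = 0.00525), with plates that overlap. The Rab27a call was lost without the filter on low counts (edgeR adjusted p = 0.584) and without the wells high in Ppy (adjusted p = 0.522), while with DESeq2 its adjusted p was just inside the threshold. Snap25, Vamp2, Syt7 and Syt13 had log2 fold changes of -0.17, -0.16, -0.37 and -0.11, none past the threshold, and the other 4 members (Stx1a, Rab3a, Cadps and Rims3) fell under the filter. With library size alone 252 genes were higher and 102 lower, against 146 and 194 with TMM, and the median of all genes was 0.25 and 0.00. The comparisons share their wells with the preceding ones and are not independent of them.

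Other exocytosis genes also differed between these wells. Of the list of 83, 47 were tested between somatostatin-only and insulin-only wells, where 6 were higher and 9 lower, beside the 17.6% of all genes called. Cacna1h, a T-type calcium channel, averaged 68.9 CPM in somatostatin-only wells and 1.8 CPM in insulin-only wells (log2 fold change 5.85 ± 0.93, edgeR adjusted p = 9.38e-09). Syt1, the fast calcium sensor of synapses, averaged 43.1 and 4.1 CPM (3.86 ± 0.79, adjusted p = 1.91e-05) and Stxbp5l, a tomosyn, 71.1 and 2.6 CPM (4.07 ± 0.63, adjusted p = 3.38e-09) in the same order. Baiap3, Exoc6 and Stxbp6 were the other 3 that were higher, with 1.81, 1.67 and 1.56. Sytl4 (granuphilin), an effector of Rab27a, averaged 13 CPM in somatostatin-only wells and 213 CPM in insulin-only wells (-4.08 ± 0.37, adjusted p = 1.57e-25). Syt4 (-1.96), Syn2 (-1.64), Rab3d (-1.52), Sv2a (-1.23) and Napa (-1.06) were also lower.

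In glucagon-only against insulin-only wells 30 of these genes were tested, of which 4 were higher and 7 lower, beside the 35.5% of all genes called (16.0% higher and 19.5% lower). Syt9 averaged 50.8 CPM in glucagon-only wells and 7.0 CPM in insulin-only wells (log2 fold change 2.49 ± 0.60, edgeR adjusted p = 0.000322), and Syt11 (1.43), Cacnb3 (1.06) and Baiap3 (1.00) were the others that were higher. Sytl4 (-4.16), Pclo (-2.44), Rab3d (-2.02), Madd (-1.51), Syt4 (-1.27) and Sv2a (-1.26) showed the largest decreases. Between somatostatin-only and glucagon-only wells 0 of 7 tested were called by edgeR, beside the 28.7% of all genes called. An unadjusted p under 0.05 was found for 2 of the 7, beside 449 of all 1186 genes.

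**Figure D3:**
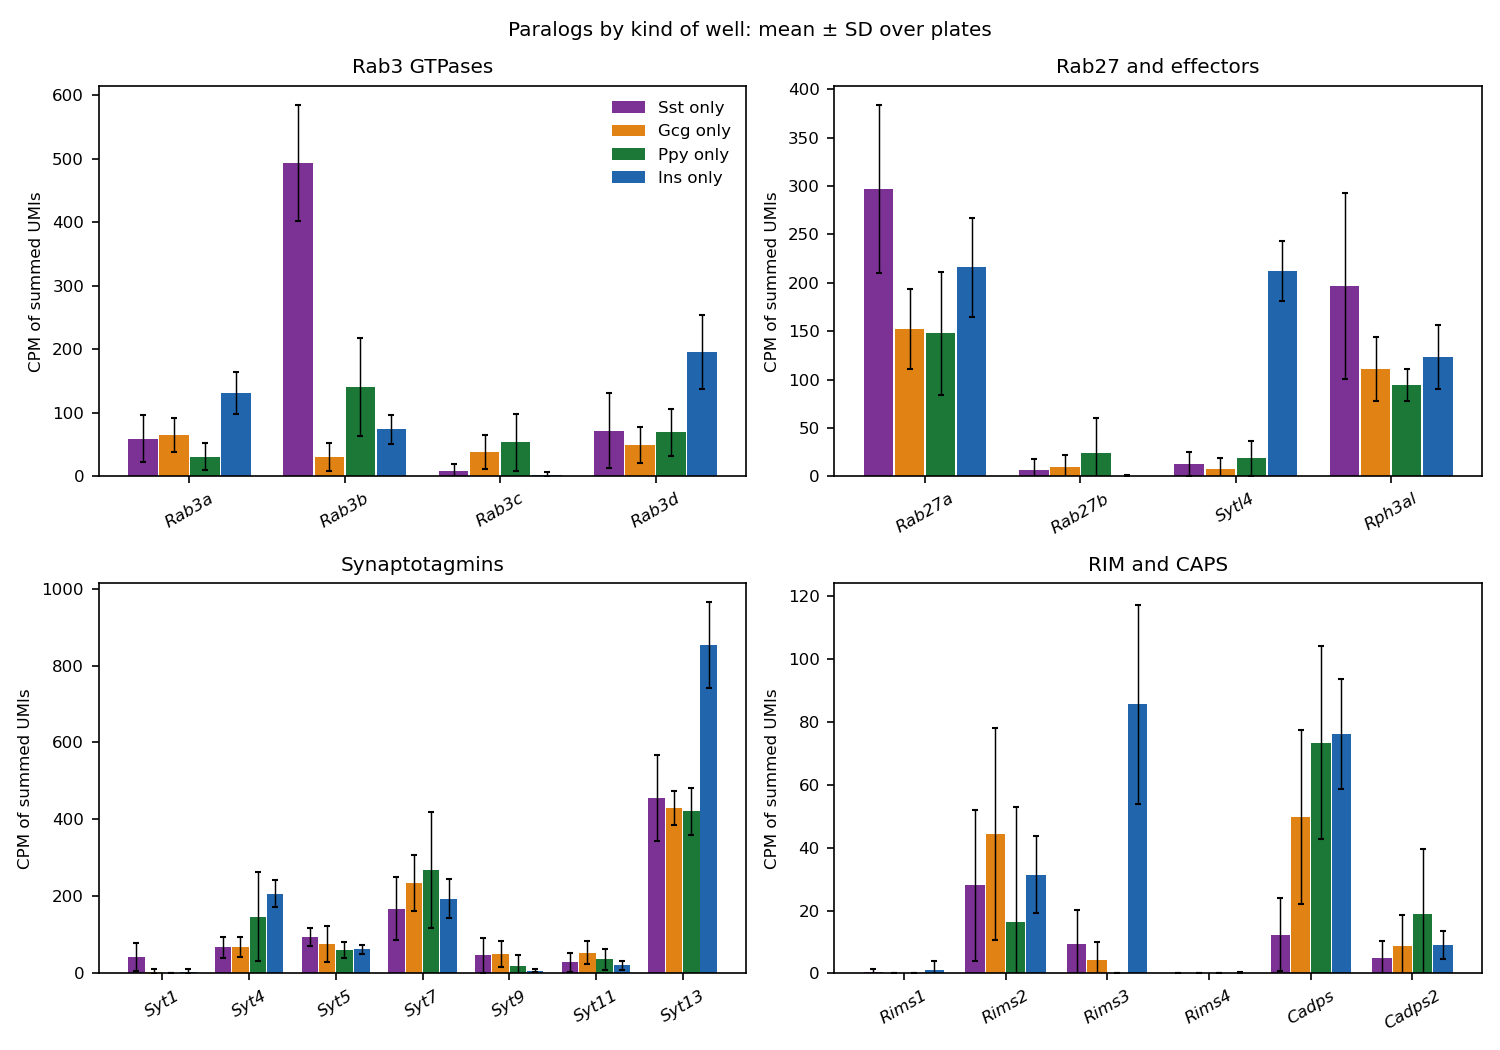
Mean level (CPM of summed UMIs, bars from 0, error bars SD over plates) of paralogs in 4 groups of genes, by kind of well. Within the Rab3 GTPases Rab3b stands at 494 CPM in somatostatin-only wells, and Rab3d at 196 and Rab3a at 131 CPM in insulin-only wells.

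The Rab3 paralogs were set side by side as levels, without a test between genes. The mean of Rab3b was highest in somatostatin-only wells, and those of Rab3a and Rab3d (196 CPM) in insulin-only wells. Rab3c, chosen after its values were seen and under the filter in every comparison of kinds of well, averaged 8.6 CPM in somatostatin-only, 38.4 CPM in glucagon-only, 53.6 CPM in Ppy-only and 2.7 CPM in insulin-only wells.

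Wells high in both insulin and somatostatin, the joined wells that the series is named for, carried genes of both kinds. Rab3b had 205, 124 and 370.4 CPM on the ppx plates and 193, 145 and 179 CPM on the sham plates of joined wells. All 6 values were above those of insulin-only wells, whose highest plate had 119.6 CPM (17 UMIs in 24 wells). The margin was small, since the joined plate at 124 CPM rests on 4 UMIs in 6 wells. The share of all genes with such a layout was not computed. Rims3 averaged 52.2 ± 30.8 CPM and Syt13 734 ± 107 CPM in joined wells (SD, n = 6), between their means in the 2 single-hormone kinds. Cadps averaged 63.0 ± 34.2 CPM, and Snap25 88.5 ± 36.6 CPM. Wells high in both somatostatin and glucagon held 0 Rims3 UMIs of 368046 (up to 8.2 CPM) and averaged 213 ± 35.3 CPM of Rab3b (SD, n = 3 plates with at least 5 wells). These levels are descriptions without a test. The median well high in both insulin and somatostatin had 6091 UMIs, against 1582.5 UMIs in somatostatin-only and 4250.5 UMIs in insulin-only wells. Whether joined wells held single cells was not tested.

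The third question was whether the operation changed these genes within a kind of well. In insulin-only wells no member passed the threshold, of 9 tested, beside 0.33% of 8181 genes called (0.232% higher and 0.0978% lower). DESeq2 called 0 members too. Rims3 and Syt7 showed the smallest p-values, with every ppx plate under every sham plate, a pattern found in 12.5% of all genes, and 727 genes had an unadjusted p under 0.05.

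**Figure D4:**
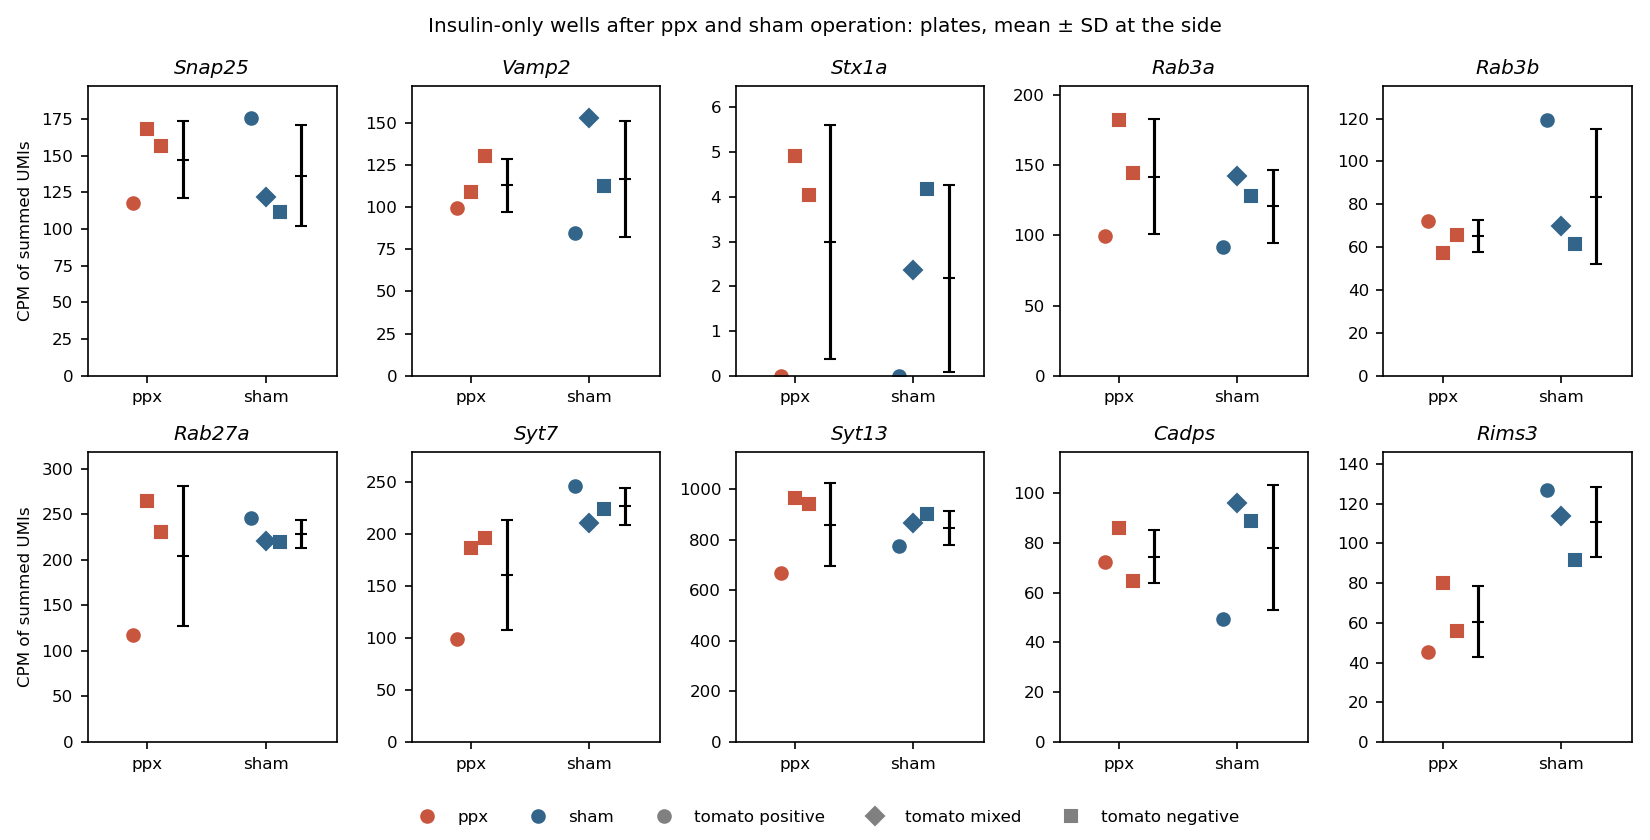
Levels in insulin-only wells (CPM of summed UMIs, axes from 0), 1 point per plate with ppx on the left and sham on the right, shapes for tomato status, and the mean ± SD at the side. The Rims3 plates lie at 45.3 to 80.2 CPM after ppx, all under those after sham operation at 91.8 to 126.6 CPM.

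Rims3 averaged 60.5 ± 17.9 CPM in ppx plates and 110.7 ± 17.6 CPM in sham plates (SD, n = 3 each), a log2 fold change of -0.74 ± 0.20 (edgeR unadjusted p = 0.000816, adjusted p = 0.121). Over all settings tried its adjusted p ran between 0.0484 and 0.795. On tomato-positive plates it had 45.3 CPM after ppx and 126.6 CPM after sham operation, and on tomato-negative plates 80.2 and 55.9 CPM after ppx and 91.8 CPM after sham operation. Each tomato-positive plate held few insulin-only wells, 20 after ppx and 24 after sham operation. Syt7 averaged 161 ± 53.2 CPM in ppx plates and 227 ± 17.9 CPM in sham plates (-0.36 ± 0.15, edgeR adjusted p = 0.431), where the 2 tomato-positive plates had 99.6 CPM after ppx and 246 CPM after sham operation.

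The other members in insulin-only wells had smaller values. Snap25 had a log2 fold change of 0.28 ± 0.17 and Rab3a of 0.20 ± 0.16. Cadps had -0.29 ± 0.20, Rab3b -0.27 ± 0.22, Vamp2 -0.17 ± 0.17, Rab27a -0.02 ± 0.15 and Syt13 -0.01 ± 0.14, and edgeR's adjusted p was 0.675 or above for each of these. Syt13 averaged 860 ± 165 CPM in ppx plates and 847 ± 65.9 CPM in sham plates (SD, n = 3 each). Among the other exocytosis genes 0 of 52 tested were called by edgeR, beside 0.33% of all genes. An unadjusted p under 0.05 was found for 10 of the 52, beside 727 of all 8181 genes. The duct list summed to 442 to 616 CPM on ppx plates and 288 to 393 CPM on sham plates of insulin-only wells, carried by 4 of its 5 genes with Krt19 at 0 in both, and the alpha cell list to 2735 to 3191 CPM on ppx plates (5 of 6 genes, with Irx1 at 0) and 2145 to 2488 CPM on sham plates (6 of 6 genes). The part of both lists in these values was not tested.

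In somatostatin-only wells 5 members could be tested and none was called by edgeR, beside 0.108% of 923 genes. Rab3b averaged 494 ± 145 CPM in ppx plates and 493 ± 1.6 CPM in sham plates (SD, n = 3 each; log2 fold change -0.08 ± 0.23). Vamp2 had 0.45 ± 0.37, Rab27a -0.12 ± 0.24, Syt7 -0.26 ± 0.29 and Syt13 -0.06 ± 0.22. Most of these wells came from the tomato-positive plates, 224 of 245 after ppx and 212 of 295 after sham operation, so ppx replicates 2 and 3 rest on 9 and 12 wells. Stx1a, under the filter, had 5.0, 0 and 0 CPM on the ppx plates, 2 UMIs in all, and 26.6, 25.9 and 27.5 CPM on the sham plates, 14 UMIs in all. Those plates do not overlap, as for 9.21% of the 923 genes that passed the filter, a set without Stx1a. Without the filter edgeR gave Stx1a an adjusted p of 0.789. The delta cell marker list summed to 3756 to 4855 CPM on ppx plates and 5335 to 5386 CPM on sham plates of somatostatin-only wells, with all 5 genes present in both. Ppy and Pyy summed to 89313 to 155386 CPM on those ppx plates and 42542 to 80335 CPM on the sham plates, and the part of both lists in these values was not tested. Snap25, Rab3a, Cadps and Rims3 also fell under the filter on low counts.

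In glucagon-only wells 3 members could be tested and none was called by edgeR, beside 0.584% of 685 genes, of which 3 were higher and 1 lower (0 and 1 with library size alone). Rab27a averaged 122 ± 34.9 CPM in ppx plates and 183 ± 14.1 CPM in sham plates (SD, n = 3 each; log2 fold change -0.56 ± 0.37, edgeR adjusted p = 0.816), with no overlap. Syt13 averaged 455 ± 52.2 CPM in ppx plates and 404 ± 5.6 CPM in sham plates (0.27 ± 0.21, adjusted p = 0.843), again with no overlap, a pattern seen in 13.0% of all genes there. Syt7 had 0.32 ± 0.33 (edgeR adjusted p = 0.911). On the ppx plates these values rest on 6, 17 and 8 wells. The other 7 members, Snap25, Vamp2, Stx1a, Rab3a, Rab3b, Cadps and Rims3, fell under the filter on low counts. Ppy and Pyy, both present, summed to 69723 to 96489 CPM on ppx plates and 9030 to 46295 CPM on sham plates of glucagon-only wells. The delta cell list summed to 381 to 446 CPM on ppx plates (3 of 5 genes, with Ghsr and Pdyn at 0) and 688 to 946 CPM on sham plates (3 of 5 genes, with Hhex and Ghsr at 0). The part of both lists in these values was not tested.

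The difference between the operation's effect in somatostatin-only and in insulin-only wells was tested as an interaction. It passed the threshold for 0 of 9 members and for 0.0% of 5792 genes by edgeR, where 162 genes had an unadjusted p under 0.05, and DESeq2 called 0 genes. For Rab3b the difference was 0.14 ± 0.44, for Syt13 0.03 ± 0.36 and for Rims3 0.76 ± 1.42 on the log2 scale. The standard error of the Rims3 difference, 1.42, was larger than the Rims3 log2 fold change of -0.74 in insulin-only wells. The difference was 0.24 ± 0.56 for Snap25, 0.22 ± 0.57 for Vamp2, -0.36 ± 0.63 for Rab3a, 0.20 ± 0.41 for Rab27a, 0.53 ± 0.47 for Syt7 and -0.09 ± 1.05 for Cadps, and Stx1a fell under the filter.

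Genes with the most similar layout were ranked by Pearson's r of log2(CPM + 10) over 18 sums, 3 kinds of well on 6 plates, among 2671 genes with a mean of at least 50 CPM. Sums of 1 plate share a library, so r is given as a description. For Rab3b they were Fam159b (r = 0.954), Chgb (0.943), which encodes a granule protein, and Nnat (0.926). For Rims3 they were Gpr45 and Sytl4 (0.964 each) and Gm21974 (0.913). Syt13 went with Atp2a2 (0.927), a calcium pump of the endoplasmic reticulum, Ucn3 (0.924) and Pdia6 (0.914), and Rab3a with Dnajc3 (0.900), Lman2 (0.890) and Adipor1 (0.889). The highest values for Cadps were with Atf4 (0.858), Spc25 (0.856) and Nell1 (0.839), for Rab27a with Rfx6 (0.823), Tmem59 (0.821) and Slc6a6 (0.789), for Syt7 with Galnt2 (0.859), Cab39 (0.818) and Hnrnpul2 (0.781), and for Snap25 with Ube2j1 (0.827), Txnl1 (0.817) and 4933434E20Rik (0.798). The Vamp2 values, with Npdc1 (0.953), Atp5j2 (0.947) and Kmt2e (0.936) first, include 1 sum of 9 wells in which Vamp2 was at 0, and Stx1a, with Fkbp5 (0.756), Pdcd4 (0.738) and Smad1 (0.737), was itself near its detection limit. Among the members themselves, Rims3 and Syt13 had r = 0.789 and Cadps and Rab3b r = -0.70 over the same 18 sums.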

How the data were processed

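The authors deposited unnormalized UMI counts from MARS-seq in 6 tables, 1 for each plate, where every well has its own column, per the file headers. The submitters' processing notes name HISAT 0.1.6 and the build mm10. Which counter and annotation made the tables is not given in the sources used here.

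Of all wells, 96 had under 500 UMIs and were left out, as were 93 with over 20% mitochondrial UMIs, which kept 2115 of 2304 wells. Doublets were not removed, since joined wells belong to the study. Hormone thresholds are those in the text. Hormone-low wells had at least 3 UMIs of endothelial, stromal, macrophage or lymphocyte markers. Wells high in 1 hormone could still be high in Ppy. UMIs were summed per kind of well and plate, with at least 5 wells (10 for insulin-only wells in the comparison of operations). Sums were tested with edgeR 4.0.16 (R 4.3.3; TMM, filterByExpr, quasi-likelihood F test), with plate as a block between kinds of well and in the interaction. Standard errors come from the F statistic. DESeq2 1.42.0 was the second tool. The scripts were tested on simulated counts. CPM values come from unnormalized sums. Intervals are exact (binomial for shares of wells, Poisson for UMI sums) at 95%. A count of 0 was taken to allow up to 3 counts. Python 3.11.15 was used with numpy 2.4.6, pandas 2.3.3 and scipy 1.17.1.

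The 10 genes, the 83 other genes, the marker lists and the thresholds were chosen with earlier results of these data known. The rule for the text was to name all 10 members in every comparison (the value where tested, otherwise the filter on low counts), up to 6 called genes per direction of the other list, and the 3 most similar genes per member. Alternatives were another normalization, no filter on low counts, DESeq2, hormone thresholds multiplied or divided, wells high in Ppy left out, at least 1000 UMIs per well, each plate left out, the plate or replicate block, both tomato-positive plates left out, and library size alone.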

Additional observations from a re-analysis of the deposited data

Results flagged for a closer look

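Of 50 groups of plates examined, 8 had 1 plate far from the others. No chance rate is given, since the plates of a group differ in wells and some values rest on 0 or 1 UMI. Several of the 8 rest on few wells. In ppx replicate 2, Vamp2 stood at 0 CPM in 9 somatostatin-only wells, against 104 to 163 CPM on the other 5 plates, Rab3b at 73.2 CPM from 5 UMIs in 17 glucagon-only wells, against 15.7 to 31.7 CPM, and Rims3 at 14.6 CPM from 1 UMI in the same wells, against 0 to 5.4 CPM. In ppx replicate 1, Syt13 reached 513 CPM in 6 glucagon-only wells, against 398 to 439 CPM on the other plates, Syt7 reached 528 CPM in 7 Ppy-only wells, against 162 to 247 CPM on 4 other plates, and Rab27a was at 118 CPM in 20 insulin-only wells, against 219 to 264 CPM. In joined wells of ppx replicate 3, Rab3b had 370.4 CPM from 9 UMIs in 5 wells, against 124 to 205 CPM. In insulin-only wells of sham replicate 1, a tomato-positive plate with 24 such wells, Rab3b had 119.6 CPM from 17 UMIs, against 57.3 to 72.4 CPM on the other plates.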

How the results depend on the processing

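Over 756 refits of the members, 158 kept a call, 4 lost one, 4 gained one and 590 stayed without a call in both, of which 69 changed sign, and no called value changed sign. Between somatostatin-only and glucagon-only wells the number of members called was 1 in place of 2 with no filter on low counts and with wells high in Ppy left out. Without the plate block Rab27a gained a call between somatostatin-only and insulin-only wells (0.42, edgeR adjusted p = 0.028), and with thresholds doubled between glucagon-only and insulin-only wells (-0.47, adjusted p = 0.0299). Leaving out 1 plate at a time kept 5 members called between somatostatin-only and insulin-only wells, 3 to 4 between glucagon-only and insulin-only wells, 2 between somatostatin-only and glucagon-only wells, and 0 in each comparison of operations. Genes called between somatostatin-only and insulin-only wells numbered 636 with wells high in Ppy left out, against 1020.

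The plates were too few to settle whether replicate numbers pair ppx and sham plates. Same-numbered plates had correlations of their deviations of 0.0205, 0.0212 and 0.0117 in insulin-only wells. There ppx replicates 1 and 2 correlated best with their own number, while ppx replicate 3 correlated better with sham replicate 2 (0.0168). Same-numbered correlations were -0.0193, 0.0677 and 0.0925 in somatostatin-only wells, where ppx replicates 2 and 3 correlated best with their own number. In glucagon-only wells they were 0.000123, -0.0227 and 0.0391, and only ppx replicate 3 did so. None of the same-numbered correlations exceeded 0.1. With the replicate block 1 member, Rims3, was called in insulin-only wells (-0.74, edgeR adjusted p = 0.0484), and 61 genes were called in place of 27. Genes called there numbered 67 with no filter, 10 with DESeq2, 49 and 15 with thresholds halved and doubled, 57 without both tomato-positive plates and 12 to 49 with 1 plate left out. The block changed no other member's call.

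Depth limits the comparisons of operations outside insulin-only wells, where 3 to 5 members were tested.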
